A study of Capra hircus with 12 samples.

Results

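The miR-29 family of goat secondary hair follicles (SHFs), which produce the cashmere fibre, was taken as every miRNA of the count and TPM tables named miR-29a, miR-29b or miR-29c, with both arms of the hairpin where both were listed. This gave 5 of the 376 miRNAs, named with the goat prefix as chi-miR-29a-3p, chi-miR-29a-5p, chi-miR-29b-3p, chi-miR-29b-5p and chi-miR-29c-5p, and all 5 were among the 300 miRNAs tested. The 3p arm of miR-29c was not analysed here. Small RNA libraries had been made from SHFs dissected out of scapular skin of Liaoning cashmere goats aged 1.5 years, with 1 female and 1 male library in each of 6 months. Telogen, the resting phase, comprised February and March (4 libraries), early anagen was May (2 libraries), mid-anagen was September (2 libraries), and catagen, the regression phase, comprised November and December (4 libraries). The methods describe 3 female and 3 male goats for each time point without giving how animals entered a library, so p-values measure the spread between these 12 libraries, in which female and male libraries served as replicates. Depth was 3135292 to 5788032 miRNA counts per library.

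Mammalian miR-29 miRNAs share one seed, the short 5′ stretch that recognises target mRNAs, and differ little outside it. They are best known as repressors of extracellular matrix, with mRNAs of fibrillar collagens, elastin and fibrillin among their targets, and their level falls in many fibrotic tissues. In hair follicles, members of the family are known to restrain the progression of stem cells into growing lineages. The mature strand is in general the 3p arm, whereas the 5p arm is the passenger strand. Matrix mRNAs were not measured in these libraries, and the sequences of the goat miRNAs were not used here. In the goat RefSeq annotation (ARS1.2, another assembly than the authors' CHIR_2.0), MIR29B and MIR29C were neighbouring miRNA genes, whereas MIR29A lay between MIR490 and MIR335. In mammals miR-29b is made from a pair of loci, 1 beside miR-29a and 1 beside miR-29c, and reads of its 3p arm cannot be assigned to either of them.

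Set against the other phases together, the family did not dip as a whole in May. MiR-29b-3p was lowest in both May libraries and was the 1 member of 5 called lower. MiR-29a-3p, which made up nearly all counts of these 5 members, stayed within the range of the other months. The passenger strand of miR-29b did not follow its 3p arm, so that the 5p arm took a larger share of miR-29b counts in May than in any of the other 10 libraries.

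MiR-29a-3p dominated the family. It held 97.2% of the family's counts over all libraries (95.4% in female November to 98.1% in male May) and ranked 41 of 376 by mean TPM (2267 ± 1046, SD, n = 12). MiR-29b-3p ranked 165, with a mean TPM of 32.1 ± 15.0, and miR-29c-5p ranked 178, with 26.1 ± 6.77 (SD, n = 12). The other passenger strands were scarce, since miR-29a-5p ranked 296 (mean TPM 3.14) and miR-29b-5p ranked 306 (mean TPM 2.80). The family together took between 0.130% (female November) and 0.494% (female March) of all miRNA counts. How reads matching several members were assigned is not given in the sources used here, so the values of miRNAs as similar as miR-29a-3p and miR-29b-3p are uncertain to that extent.

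**Figure D1:**
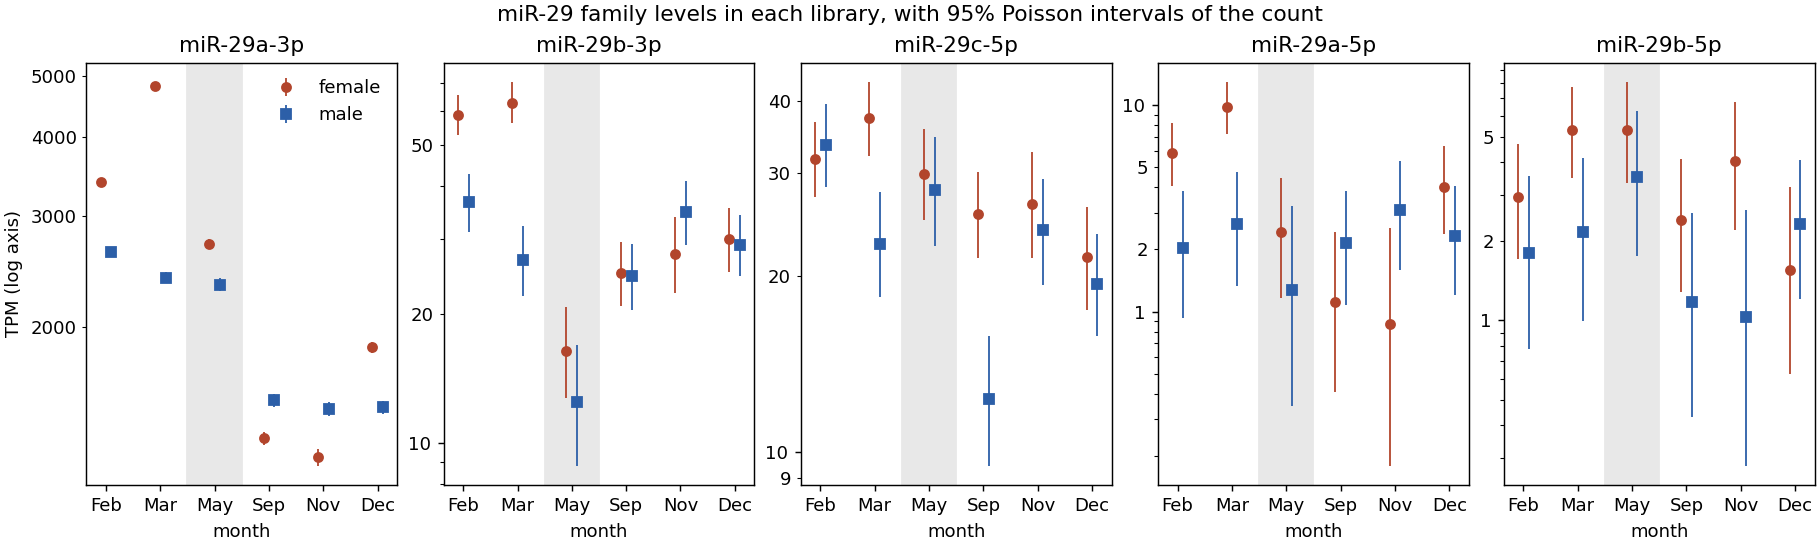
TPM (log axis, scaled per panel) of the 5 miR-29 members by month, with circles for female and squares for male libraries, 95% Poisson intervals of each count as bars, and May shaded. MiR-29b-3p is lowest in May, at 16.4 and 12.4, while miR-29a-3p, miR-29c-5p and miR-29a-5p in May lie within the range of the other months and miR-29b-5p lies in its upper part, with female May highest.

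MiR-29b-3p had a TPM of 16.4 in the female and 12.4 in the male May library, from 68 and 39 counts, with 95% Poisson intervals of 12.8 to 20.8 and 8.85 to 17.0. In September its TPM was 25.0 (female) and 24.6 (male). Catagen libraries had 27.8 and 34.8 in November and 30.0 and 29.1 in December, female and then male. Both May libraries were therefore below all others, and no interval of May reached the September values. The interval of male September (20.5 to 29.3) did overlap that of female May. In telogen the TPM of the female libraries was 58.7 in February and 62.8 in March. The male telogen libraries had 36.7 in February and 26.9 in March, so the telogen group was wide and its lowest library was below the 4 of catagen. By monthly mean TPM (± SD, n = 2), miR-29b-3p ran from May (14.4 ± 2.83) over September (24.8 ± 0.261), December (29.6 ± 0.637), November (31.3 ± 4.95) and March (44.8 ± 25.4) to February (47.7 ± 15.6). May and September did not overlap, nor did September and December, whereas December and November, November and March, and March and February did.

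MiR-29a-3p, the most abundant member, had a TPM of 2709 (female) and 2333 (male) in May. In telogen its TPM was 3396 and 2629 in February and 4825 and 2391 in March, female and then male. In September it was 1330 and 1528, and in catagen 1241 and 1483 in November and 1854 and 1489 in December. The female May library thus lay among the telogen libraries and the male one just below them, and both were above September and catagen on the TPM scale. In the order of monthly means, November (1362), September (1429) and December (1672) overlapped, as did May (2521), February (3013) and March (3608), with a gap between December and May. After TMM scaling December (1873 CPM) and May (1992 CPM) overlapped instead, and the gap lay between May and February (2838 CPM).

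MiR-29c-5p varied least relative to its mean. Its TPM was 30.0 and 28.1 in May, 25.5 and 12.3 in September, 26.6 and 24.0 in November, 21.6 and 19.4 in December, 31.8 and 33.6 in February, and 37.3 and 22.7 in March, female and then male. The male September library was the lowest, and May lay inside the range of telogen.

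MiR-29a-5p was listed with a TPM of 2.42 and 1.28 in May, 1.11 and 2.15 in September, and 0.868 to 4.00 in the 4 catagen libraries. It reached 5.87 and 9.82 in female February and March against 2.03 and 2.66 in the male libraries of those months. These female telogen libraries were the highest, and miR-29a-5p passed the filter of more than 5 CPM in 2 libraries through them alone. MiR-29b-5p had a TPM of 5.32 and 3.51 in May, 2.41 and 1.17 in September, 1.03 to 4.05 in catagen and 1.80 to 5.30 in telogen. Female May and female March were highest, and through these libraries alone it passed the filter. Counts behind both passenger strands were small, from 3 to 50 for miR-29a-5p and from 4 to 27 for miR-29b-5p.

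The comparisons of phases ask which miRNAs change from one stage of the hair cycle to the next. Differences are log2 fold changes on the scale of counts normalised by TMM, which corrects for the composition of a library, with the standard error (SE) and the adjusted p of edgeR's quasi-likelihood test over all 300 miRNAs. Calls needed an adjusted p under 0.05 together with a 2-fold or larger difference. The May libraries enter 4 of the comparisons, which therefore share samples and are not separate support for each other.

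From telogen to May, miR-29b-3p fell by 1.91 on the log2 scale (SE 0.39, adjusted p = 0.022), the 1 member called of 5, where 2.33% of the 300 miRNAs were called in either direction. The groups did not overlap. MiR-29a-3p had a log2 fold change of -0.62 (95% interval -1.23 to -0.01, adjusted p = 0.163) and miR-29a-5p, which passed the filter through telogen libraries alone, one of -1.67 (adjusted p = 0.156). Those of miR-29c-5p (-0.33, adjusted p = 0.530) and miR-29b-5p (0.31, adjusted p = 0.745) did not pass the test either. Unadjusted p was under 0.05 for 3 members, miR-29b-3p, miR-29a-3p and miR-29a-5p, all lower in May, beside 88 of the 300 miRNAs in either direction. The call of miR-29b-3p was lost when the fit held only telogen and May libraries (adjusted p = 0.119), without the female May library (adjusted p = 0.0896) and without the male one (adjusted p = 0.339).

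From May to September, miR-29b-3p rose by 1.30 (log2, SE 0.42, adjusted p = 0.0303), again 1 of 5 members, against 18.3% of all miRNAs called. The other members had log2 fold changes between -0.77 (miR-29b-5p) and 0.29 (miR-29a-5p), and none passed the test. With scaling by library totals the difference of miR-29b-3p was 0.77 (adjusted p = 0.110) and that of miR-29a-3p went from -0.30 (adjusted p = 0.493) to -0.82 (adjusted p = 0.0367). The call of miR-29b-3p was also lost without any of the May or September libraries (adjusted p 0.0748 to 0.187). From May to catagen, miR-29b-3p rose by 1.62 (SE 0.38, adjusted p = 0.00620), 1 of 5 members against 16.7% of all miRNAs. Without the male May library this difference was 1.41 (adjusted p = 0.0728). MiR-29a-3p differed by -0.18 (SE 0.27, adjusted p = 0.602) in that comparison and by -0.73 (adjusted p = 0.0261) with library totals, less than 2-fold in both.

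From catagen to telogen, 0 of 5 members were called by edgeR or DESeq2, where 10.7% of all miRNAs were called by edgeR, and 1 member had an unadjusted p under 0.05. This was miR-29a-3p, which rose by 0.80 (SE 0.23, adjusted p = 0.0165), less than 2-fold, with every catagen library (TPM 1241 to 1854) below every telogen library (2391 to 4825) by TPM. After TMM scaling these groups overlapped, with up to 2023 CPM in catagen and at least 1941 CPM in telogen. Scaled by library totals miR-29a-3p was called (1.13, adjusted p = 0.00182). MiR-29b-3p, with overlapping groups, had a difference of 0.29 (SE 0.28, adjusted p = 0.422).

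**Figure D2:**
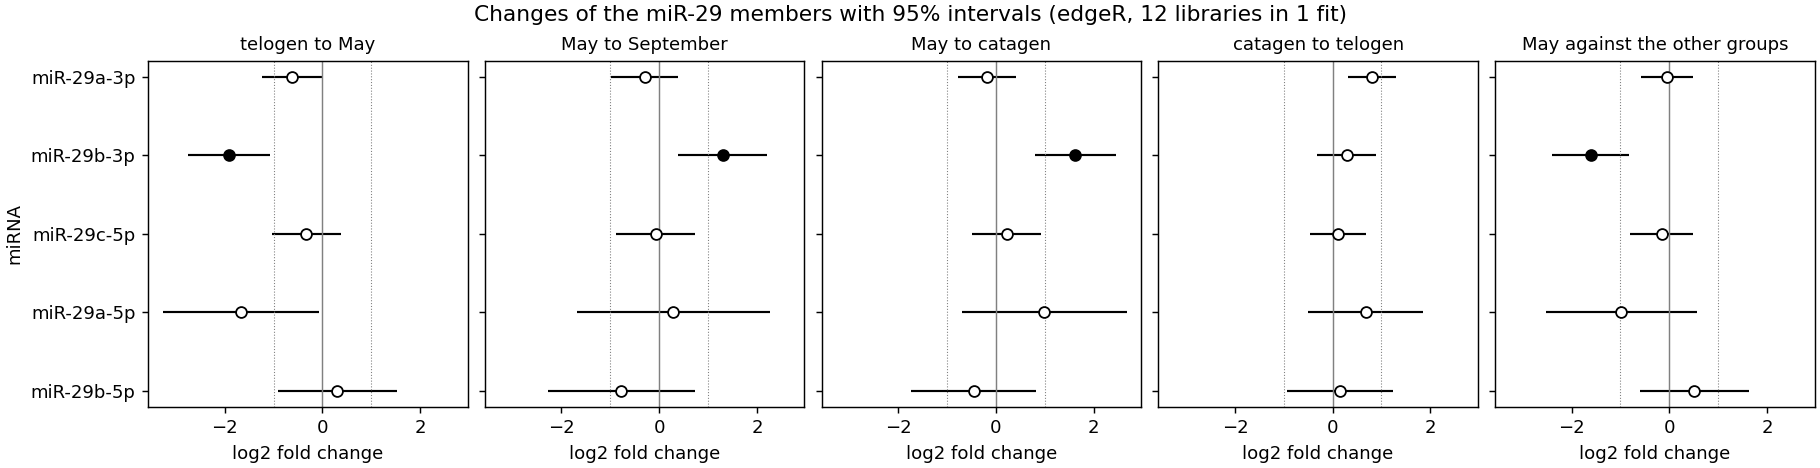
Log2 fold changes (x axis) of the 5 members (y axis) in 5 comparisons, with 95% intervals as bars, filled circles for calls and dotted lines at a 2-fold change. MiR-29b-3p is the 1 member called in each comparison with May, and no member is called from catagen to telogen.

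Whether all members dip in May was examined by setting May against the mean of the 3 other groups. MiR-29b-3p was lower by 1.61 on the log2 scale (-1.61, SE 0.36, adjusted p = 0.00547), with mean TPM of 14.4 ± 2.83 in May (SD, n = 2) and 35.6 ± 13.8 in the other libraries (SD, n = 10). It was the 1 member of 5 called, where 11.7% of the 300 miRNAs were called, and 4 miRNAs had a larger decrease. Without the male May library its difference was -1.40 (adjusted p = 0.0871). MiR-29a-3p differed by -0.05 (95% interval -0.59 to 0.49, adjusted p = 0.880), and the sign turned under library totals, to 0.39. MiR-29c-5p differed by -0.16 (95% interval -0.80 to 0.48), which also turned under library totals, to 0.28. The intervals of both exclude a decrease as large as that of miR-29b-3p. MiR-29a-5p (-0.98, 95% interval -2.53 to 0.56) and miR-29b-5p (0.51, 95% interval -0.61 to 1.63) were measured less precisely, and for miR-29a-5p a decrease of that size lies inside the interval. The dip of miR-29b-3p was known from these data before the family was chosen, so its test is no independent support.

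Both May libraries were below the other 10 for miR-29b-3p and for no other member, a pattern that 13.3% of all miRNAs showed with TMM scaling and 5.33% with library totals. No member had both May libraries above the other 10. It follows that within each sex the May library was the lowest of the 6 for miR-29b-3p, with a TPM of 16.4 against at least 25.0 in females and 12.4 against at least 24.6 in males.

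The total of the members analysed, which has no entry for the 3p arm of miR-29c, followed miR-29a-3p. The summed TPM of the 3p arms of miR-29a and miR-29b (mean ± SD) came to 3357 ± 1112 over the 4 telogen and 2535 ± 269 over the 2 May libraries. It came to 1454 ± 140 over the 2 September and 1547 ± 253 over the 4 catagen libraries. Against the median of the other 10 libraries, the May mean of this sum differed by 0.09 on the log2 scale with TMM scaling and by 0.56 with library totals. The total thus did not dip below that median. By means after TMM scaling the sum was lower in May (2003 CPM) than in the other 10 libraries (2289 CPM). The May mean was below that of telogen (3107 CPM) and above those of September (1650 CPM) and catagen (1791 CPM). The summed TPM of the 3 passenger strands was 35.3 ± 3.44 in May (SD, n = 2), inside the range of 15.6 to 52.4 of the other libraries. In bulk follicles, fewer cells of a type and less of a miRNA per cell cannot be told apart.

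Ratios within a library do not depend on its scaling. MiR-29b-3p made up 0.603% of the counts of miR-29a-3p and miR-29b-3p together in female May (95% Wilson interval 0.476% to 0.764%) and 0.530% in male May (0.388% to 0.724%). In the other 10 libraries this share was 1.11% to 2.29%, with a median of 1.65%. Intervals cover counting error only, as the libraries carry no molecular identifiers. There were thus 165 and 188 counts of miR-29a-3p for each count of miR-29b-3p in May and 42.6 to 89.0 elsewhere. The lowest shares outside May were those of March, 1.29% (female) and 1.11% (male), and the highest those of November, 2.19% and 2.29%. On the log2 scale the ratio of miR-29b-3p to miR-29a-3p was -7.46 ± 0.13 in May (SD, n = 2) and -5.90 ± 0.34 in the other libraries (SD, n = 10). This difference of -1.56 is a description with no test, since the ratio was chosen after the May values of miR-29b-3p were known.

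The arms of miR-29b differed in their course. Reads of the 3p arm cannot be assigned to a locus, and which locus the listed 5p arm came from was not examined here. The arm ratio of miR-29b may therefore not be that of a single precursor. In May 22 of 90 miR-29b counts (24.4%, 95% Wilson interval 16.7% to 34.2%) in the female library and 11 of 50 (22.0%, 12.8% to 35.2%) in the male library were of the 5p arm. In the other 10 libraries the share was 2.88% to 12.7%, with a median of 6.17%. Both May libraries were above all others, although the interval of the female November library (7.73% to 20.2%) overlapped both. Those of female September and male March overlapped that of male May. The 5p to 3p ratio of miR-29b was higher in May than in the other groups by 2.13 on the log2 scale (SE 0.38, adjusted p = 0.000212, limma over 82 precursors with both arms past the filter), the second largest change in size. Of the 82 precursors, 25.6% were called in this comparison, 15 with a higher and 6 with a lower ratio. The ratio of miR-29a differed by -0.80 (SE 0.34, adjusted p = 0.0697), so 1 of 2 miR-29 precursors was called. The number of counts on the 5p arm of miR-29b in May, 22 and 11, lay within the 4 to 27 of the other libraries, whereas those on the 3p arm, 68 and 39, were below the 96 to 340 elsewhere. MiR-29b-5p passed the filter only through female May and female March, so the place of miR-29b among the 82 precursors depended on a May library. MiR-29a-5p passed it only through telogen libraries. The test of arm ratios, too, was chosen after the values were seen. It contains the 3p counts whose dip was already known, so it is no independent support.

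**Figure D3:**
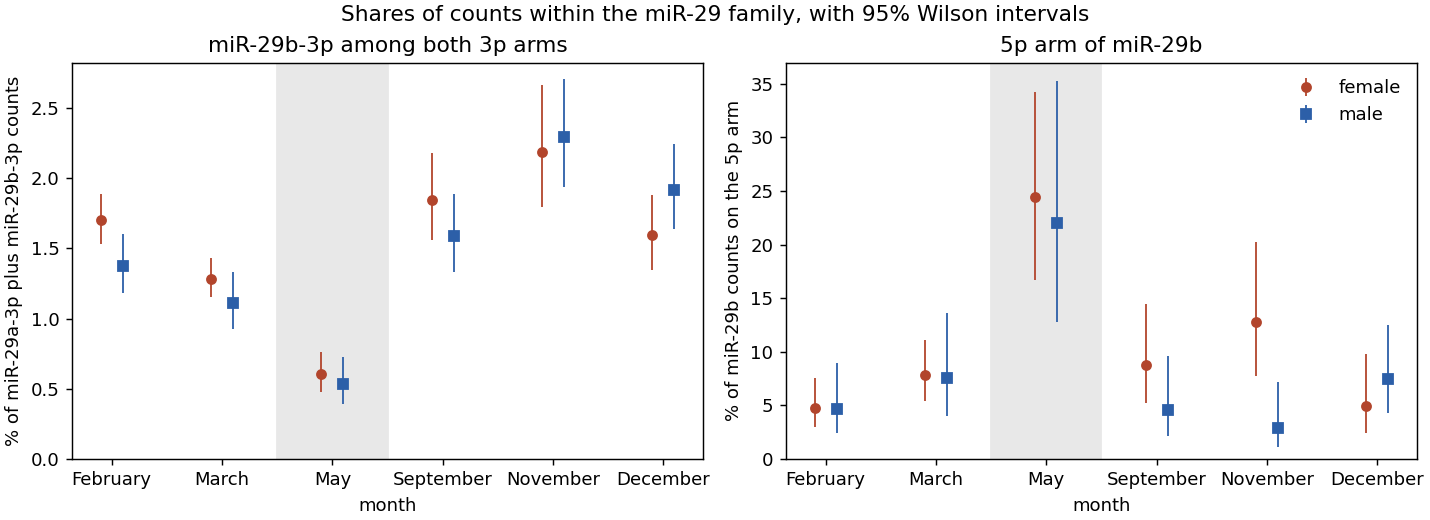
Share of miR-29b-3p among the counts of both 3p arms (left, %) and of the 5p arm among miR-29b counts (right, %) by month, with circles for female and squares for male libraries, 95% Wilson intervals as bars and May shaded. In May the left share is 0.603% and 0.530%, below all other libraries, and the right share is 24.4% and 22.0%, above all others.

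**Figure D4:**
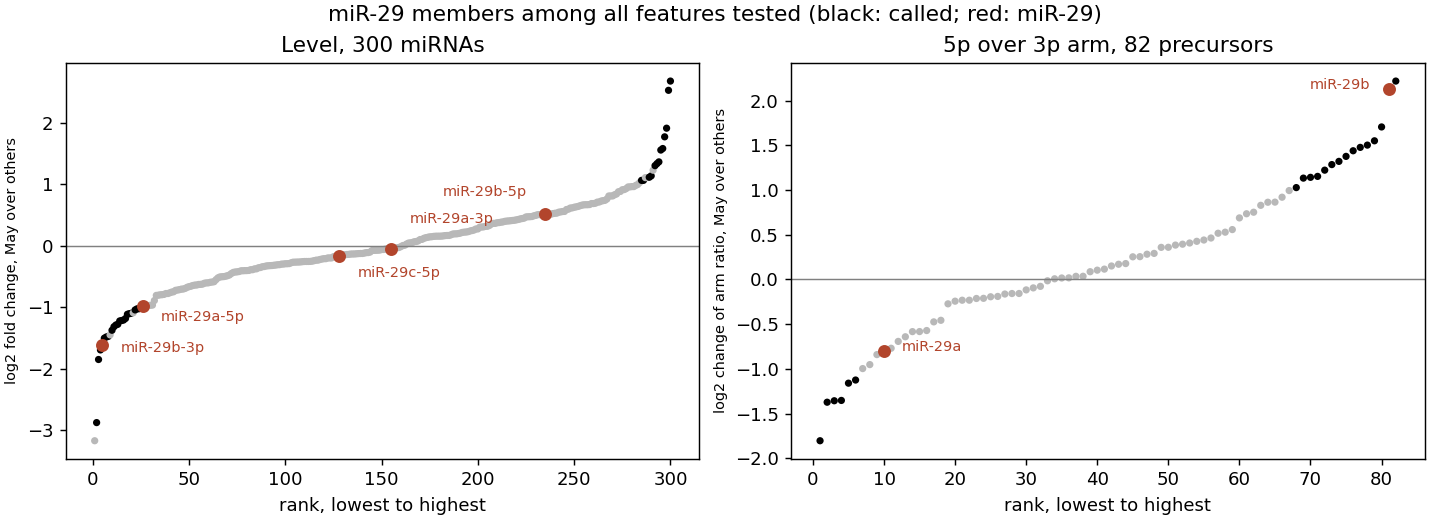
Log2 fold changes in level of 300 miRNAs (left) and log2 changes of the 5p to 3p ratio of 82 precursors (right), May against the other groups, ordered from lowest to highest (x axis, rank). Black points were called, and red points are miR-29: miR-29b-3p is near the low end on the left (-1.61), and miR-29b is near the high end on the right (2.13).

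Libraries of female and male goats were compared with month as a term. The log2 difference of male from female libraries was -0.33 for miR-29a-3p, -0.44 for miR-29b-3p and -0.44 for miR-29c-5p, and 0 of 5 members were called, as were 0% of all 300 miRNAs by edgeR. Unadjusted p was under 0.05 for 34 of the 300 miRNAs and for 2 members, miR-29c-5p (adjusted p = 0.407) and miR-29b-5p (-0.90, adjusted p = 0.310). MiR-29a-5p and miR-29b-5p passed the filter through female libraries alone, so no direction by sex is read from them. DESeq2 called 0 miRNAs as well, and edgeR's likelihood-ratio test called 1, which was no member.

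For miR-29b-3p the sexes were furthest apart in telogen. Female and male TPM were 58.7 and 36.7 in February and 62.8 and 26.9 in March, whereas all 4 catagen libraries lay between 27.8 and 34.8. On normalised log2 levels the step of miR-29b-3p from catagen to telogen was 0.83 in females and -0.49 in males. The difference between the sexes in that step was 1.30 (SE 0.33), with an adjusted p of 0.0815 in edgeR's quasi-likelihood test. For miR-29a-3p the step was 1.17 in females and 0.28 in males, a difference of 0.89 (SE 0.28, adjusted p = 0.129). No member was called in this comparison, in which 1.33% of the 300 miRNAs were. DESeq2 called both of these members (adjusted p = 0.0313 for miR-29b-3p and 0.0307 for miR-29a-3p, with 4.33% of all miRNAs called), and edgeR's likelihood-ratio test called miR-29b-3p (adjusted p = 0.0151, with 5.67% called). Each side of this comparison had 2 libraries of a sex in a phase. The comparison was chosen because earlier results of these data had shown opposite directions in the sexes for miR-29b-3p. Its p-values and calls are therefore no independent support.

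Across the 12 libraries, log2 levels of miR-29b-3p and miR-29a-3p had a Pearson r of 0.49, and those of miR-29a-3p and miR-29a-5p one of 0.79. Both arms of miR-29b had an r of 0.02. These correlations describe libraries that share month and sex pairs and carry no test. Outside the family, of 295 miRNAs, those most like miR-29b-3p were miR-26b-5p (r = 0.94), miR-33a-3p (0.90), miR-99a-5p (0.84), miR-23b-3p (0.82) and miR-130a-5p (0.82). All 5 were lowest in both May libraries with TMM scaling, as were 13.3% of all miRNAs. MiR-29b-3p lay farthest from its median in the May libraries, so this followed largely from how the 5 were picked. Without the May libraries their r was 0.85, 0.62, 0.44, 0.48 and 0.70, in that order. Their log2 differences in May against the other groups ran from -0.60 (miR-33a-3p) to -0.79 (miR-23b-3p), beside -1.61 for miR-29b-3p, and none reached a 2-fold change. The miRNAs most like miR-29a-3p were miR-141 (r = 0.93), miR-455-5p (0.86), miR-190a-5p (0.85), miR-214-5p (0.84) and miR-374a-5p (0.84). Without female February and March, the libraries in which miR-29a-3p was highest, these values were 0.90, 0.71, 0.88, 0.73 and 0.78. No miRNA was in both groups of 5.

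Other miRNAs linked to matrix or fibrosis, a list of 25 names that were all tested, included those that raise matrix deposition, such as miR-21-5p, and those that restrain it. From telogen to May 1 of 25 (4%, beside 2.33% of all miRNAs) fell, miR-215-5p (-2.38, adjusted p = 0.0375), which had a TPM of 0.960 and 1.45 in May. Its highest TPM was 2.74 in September, 4.66 in catagen and 8.79 in telogen. It thus passed the filter of more than 5 CPM through telogen libraries alone, and its lower level in May is no independent support. From May to September 3 rose, namely miR-143-3p (1.17), miR-200a (1.43) and miR-148a-3p (1.36), and 2 fell, miR-19a (-1.42) and miR-140-5p (-1.04), together 20% beside 18.3% of all miRNAs. MiR-143-3p is known from smooth muscle and mesenchyme, although the authors located it by in situ hybridization in the hair matrix of SHFs. MiR-200a keeps epithelial identity, miR-19a belongs to the miR-17-92 cluster, and miR-140-5p is a miRNA of cartilage. From May to catagen 2 rose, miR-143-3p (1.02) and miR-192-5p (1.01), 8% beside 16.7%. From catagen to telogen 0 of 25 were called by edgeR or DESeq2, beside 10.7% of all miRNAs in edgeR, although 10 had an unadjusted p under 0.05. Against the other groups 2 of 25 were lower in May, miR-215-5p (-1.85) and miR-200a (-1.03), 8% beside 11.7%. For miR-215-5p the limit set by the filter holds here too. With library totals these miRNAs kept their sign but 8 of the 10 calls were lost, and those of miR-19a and miR-140-5p from May to September were kept. MiR-143-3p and miR-192-5p then differed by 0.47 and 0.45 from May to catagen, and miR-200a by -0.59 in May against the other groups. Another 15 calls were gained over the 5 comparisons, among them those of miR-199a-3p, miR-199a-5p and miR-199b-5p, lower from May to September and to catagen. The list had a median log2 difference of -0.20 in May against the other groups, beside -0.06 over all miRNAs, and both May libraries were lowest for 4 of 25 members (16.0%), beside the 13.3% of all miRNAs. MiR-21-5p, at a TPM of 72359 and 78498 in May and 58855 to 95217 in telogen, was not called in any of these comparisons. Its difference from catagen to telogen was 0.59 (adjusted p = 0.00975), less than 2-fold as for miR-29a-3p.

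As a check of the tissue, the summed TPM of epithelial marker miRNAs (6 of 7 listed) was 56735 to 96687 across libraries and that of erythrocyte miRNAs (2 of 3 listed) 5.41 to 115. A mesenchymal list (miR-199a, miR-199b and miR-214) had a summed TPM of 60124 and 65281 in May, above the 23075 to 53247 of the other libraries. The sum was carried by the miR-199 members, while miR-214-3p, with a TPM of 42.7 and 50.5 in May, lay within the 28.4 to 69.5 of the other libraries. From telogen to May miR-214-3p differed by -0.70 (adjusted p = 0.0341), and by -0.49 (adjusted p = 0.0780) with library totals. The sum moved with the May values of miR-29b-3p in the opposite direction, and its part in them was not tested. The endothelial (8819 to 12699), leukocyte (393 to 664) and muscle lists (1897 to 3600) overlapped between May and the other libraries.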

How the data were processed

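SHF miRNAs were measured in 12 small RNA libraries. Before deposit, reads had been trimmed and aligned to the CHIR_2.0 genome, miRNAs predicted with miREvo and mirDeep2, and Bowtie (0.12.9 per the submitters' processing notes) used for quantification. The authors deposited the raw count and the TPM of 376 miRNAs for each library. The deposited TPM is the count scaled by the library total and carries no correction for library composition.

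The count tables were tested with edgeR 4.0.16 under R 4.3.3. The filter asked for over 5 CPM in 2 or more libraries, and 300 miRNAs passed. Groups were compared with glmQLFit and glmQLFTest after TMM in 1 fit of all 12 libraries and 4 groups. Sex was tested with month as a term, and its interaction with phase in groups of phase by sex. p-values were adjusted by Benjamini-Hochberg within a comparison. Log2 levels for correlations had a prior count of 1. Arm ratios (1 count added to each arm) were tested with limma 3.58.1 against the same groups. Shares carry 95% Wilson and counts 95% Poisson intervals. A floor of 3 counts corresponds to a TPM of 0.518 to 0.957, so depth limits miR-29a-5p and miR-29b-5p most. Between both libraries of a month, chi-square per degree of freedom was 81.8 to 795, above sampling noise, and none was treated as a duplicate.

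Named miRNAs were all family members, the 5 most correlated with miR-29b-3p and with the most abundant member, and those called among 25 matrix- and fibrosis-linked miRNAs (and miR-21-5p). The members, the lists and the interaction of sex with phase were chosen with earlier results of these data known. MiR-19a was listed without an arm. Alternatives were RLE, library totals, DESeq2 1.42.0, the likelihood-ratio test, other filters, a sex block, fits of only the groups compared, no minimum fold and each library left out. The tests were checked on simulated counts. Target mRNAs were not analysed here.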

Additional observations from a re-analysis of the deposited data

How the results depend on the processing

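Of the values of single members under alternatives, 484 of 514 kept their sign and their call or lack of one, 10 lost a call, 4 gained one and 16 changed sign. Most of these values had no call to lose, and all 10 lost calls were of miR-29b-3p in comparisons with May. MiR-29b-3p kept its direction in all comparisons with May, but its calls rest on 2 May libraries. Left-out libraries gave 0 to 1 members called from telogen to May (lost without either May library), from May to September (lost without any May or September library), and, lost without male May, from May to catagen and in May against the other groups. From telogen to May 0 members were called with only these groups fitted, and from May to September 0 with library totals. With library totals the log2 differences of miR-29a-3p were -0.82 (adjusted p = 0.0367) from May to September and -0.73 (adjusted p = 0.0261) from May to catagen, both less than 2-fold. From catagen to telogen miR-29a-3p was called with library totals and with no minimum fold (1 member each). In the sex interaction DESeq2 called 2 members and the likelihood-ratio test 1. MiR-29b-3p over miR-29a-3p in May differed by -1.65 to -1.47 without single libraries. The arm ratio of miR-29b remained called in every alternative (1.98 to 2.28 without single libraries).

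Signs turned for the other 4 members. With library totals these were miR-29a-5p (-0.22) from May to September, miR-29c-5p (-0.35) from May to catagen, and miR-29a-3p (0.39) and miR-29c-5p (0.28) in May against the other groups, where miR-29a-3p was also 0.000167 with no filter and 0.10 above 50 CPM. Without single libraries the ranges were -0.19 to 0.64 (miR-29a-5p) and -0.76 to 0.39 (miR-29c-5p) from May to September, -0.074 to 0.57 (miR-29b-5p) from catagen to telogen, and -0.086 to 0.11 (miR-29a-3p) and -0.31 to 0.072 (miR-29c-5p) in May against the other groups.

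Over all miRNAs, calls from telogen to May were 7, and 4 with library totals, 13 with DESeq2, 13 with the likelihood-ratio test, 2 above 50 CPM, 15 with a sex block, 0 with only these groups, 16 with no minimum fold and 0 to 27 without single libraries. From May to September they were 55, 102 with no minimum fold and 27 to 69 without single libraries. From May to catagen they were 50, 82 with library totals, 26 above 50 CPM, 111 with no minimum fold and 27 to 57 without single libraries. From catagen to telogen they were 32, 14 above 50 CPM and 105 with no minimum fold. May against the other groups gave 35, then 57 with library totals, 19 above 50 CPM, 17 as 2 groups, 95 with no minimum fold and 1 to 40 without single libraries. With library totals 16 miRNAs had both May libraries lowest and 64 highest (40 and 29 with TMM). The median of all miRNAs in May against the other groups moved from -0.06 to 0.36, and higher and lower calls there went from 13 and 22 to 51 and 6. From May to September they went from 29 and 26 to 9 and 71, from May to catagen from 27 and 23 to 10 and 72, from catagen to telogen from 19 and 13 to 43 and 5, and from telogen to May from 1 and 6 to 2 and 2. The cause of these shifts was not tested.

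Female and male libraries stand in for replicates. With sex as a block miR-29b-3p stayed called in all 4 comparisons with May. Depth limits miR-29a-5p, with 3 to 50 counts, and miR-29b-5p, with 4 to 27. By Dixon's test, 0 of the 10 combinations of a member with telogen or catagen held an outlying library. With 4 libraries in a group this test finds only an extreme single value, and it cannot show a split between the sexes. May and September, with 2 libraries each, were not tested.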
